A study of Mus musculus with 4 samples.

Results

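Among cells taken from mouse hearts as positive for a fluorescent reporter, a small set of fibroblasts carried the RNA of interferon-induced genes at once. These interferon-responding cells were chosen by their own RNA. A cell was a member if it had at least 2 unique molecular identifiers (UMIs, single captured RNA molecules) of Ifit3, at least 1 UMI of at least 4 of the 7 genes Ifit1, Isg15, Irf7, Rsad2, Usp18, Oasl2 and Ifi44, and fewer than 2 of the 4 mural cell genes Rgs5, Kcnj8, Vtn and Myh11. Of 23405 cells kept in 2 libraries (those with 500 or more genes and 1000 or more UMIs, of which no more than 10% mitochondrial), 519 were members, which is 2.22%. They were set against the 20157 kept cells of the same libraries with no UMI of Ifit3, called Ifit3-negative cells. The limit on mural cell genes was not applied to these.

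The study asked how varied the mesenchymal progenitors of the heart are, and measured RNA by droplet sequencing (10x Genomics, 3′ ends of transcripts) in 4 libraries of digested mouse hearts. The PDGFRa library held H2BEGFP+ cells of the strain B6.129S4-Pdgfratm11(EGFP)Sor/J, given as C57BL/6, whose nuclear reporter follows the Pdgfra gene, from 4 hearts: 2 collected 7 days after ligation of the left anterior descending coronary artery, a model of infarction, and 2 undamaged. The citrine library held Hic1 Citrine+ cells of strain C57BL/6 (Hic1 Citrine) from 3 undamaged hearts. Cells of each heart in these libraries carried a hashtag, a barcoded antibody to MHC class I, before the hearts were pooled into 1 library. The labels do not say which PDGFRa hashtag marks an undamaged or a ligated heart, so the condition of each heart is not used. The other libraries came from C57BL/6 mice with Hic1 CreERT2 tdTomato alleles and held tdTomato+ cells, with 3 pooled hearts 7 days after ligation in one and 3 pooled undamaged hearts in the other, and no hashtags. All 4 libraries were made of reporter-positive cells, so other cells of the heart are under-represented, and hearts of 1 library shared its capture and sequencing. Animal ages are not given in the sources used here.

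Interferons are secreted proteins that cells release on sensing foreign or misplaced nucleic acid. Type I interferons act through the receptor chains Ifnar1 and Ifnar2 and the kinases Jak1 and Tyk2, which activate a transcription complex that includes Stat2 and Irf9. That complex binds the interferon-stimulated response element (ISRE) upstream of its targets, whereas interferon gamma acts mainly at a different element, GAS. Many targets are themselves parts of the antiviral defence, from sensors of viral RNA to proteins that block translation, and fibroblasts are known to respond to interferons in most organs.

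Cells of 7 hearts could be told apart, 3 in the citrine and 4 in the PDGFRa library. Cells with exactly 1 hashtag entered comparisons between hearts, namely 398 members with 4935874 UMIs and 15706 Ifit3-negative cells with 137570924 UMIs. PDGFRa hearts 1 and 2 stood apart from the others: their Ifit3-negative cells had 6762 and 7449.5 CPM (UMIs of a gene per 1000000 UMIs of the cells) of Col1a1, a fibrillar collagen gene, and the other 5 hearts had 1109.7 to 1317 CPM. The lead counts are therefore also given without those hearts. The citrine and PDGFRa libraries shared 36 cell barcodes, 1 of them a citrine member and none a PDGFRa member. Members had more UMIs than Ifit3-negative cells, with medians of 10793 against 7732 in the citrine library and 14161 against 7580.5 in the PDGFRa library. The median mitochondrial share was 3.23% in members and 3.09% in Ifit3-negative cells of the citrine library, and 2.59% and 2.83% in those of the PDGFRa library. More than 1 hashtag was found on 25.4% of citrine members (61 of 240, exact Clopper-Pearson 95% interval 20.04 to 31.4%) against 16.9% of citrine Ifit3-negative cells, and on 10.8% of PDGFRa members (30 of 279, 7.37 to 14.99%) against 6.59% of PDGFRa Ifit3-negative cells.

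Members made up 2.22% of the kept PDGFRa cells (279 of 12567, 95% interval 1.97 to 2.49%) and 2.21% of the kept citrine cells (240 of 10838, 1.95 to 2.51%). The share was 3.13%, 1.17% and 2.53% in citrine hearts 1 to 3, and 3.11%, 2.95%, 0.999% and 0.937% in PDGFRa hearts 1 to 4. Thus 4 hearts held members at 2.53% or more and the other 3 at 1.17% or less, and the intervals of these sets did not overlap. Intervals cover counting error only, and no test was made between single hearts. Since a cell with more UMIs passes the rule more easily, every cell was also thinned to 3000 UMIs. The thinned share, a mean of 20 draws, was 1.04%, 0.406% and 0.827% in citrine hearts 1 to 3 and 0.865%, 0.862%, 0.302% and 0.434% in PDGFRa hearts 1 to 4. By these means the same 4 hearts stayed above the same 3. Single draws overlapped, with up to 0.691% in PDGFRa heart 4 and down to 0.582% in citrine heart 3. Thinning left out 562 citrine and 445 PDGFRa cells. Median UMIs of Ifit3-negative cells were 9349 and 10322 in PDGFRa hearts 1 and 2, 6415.5 and 6579 in PDGFRa hearts 3 and 4, and 6998.5 to 7987 in citrine hearts.

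**Figure D1:**
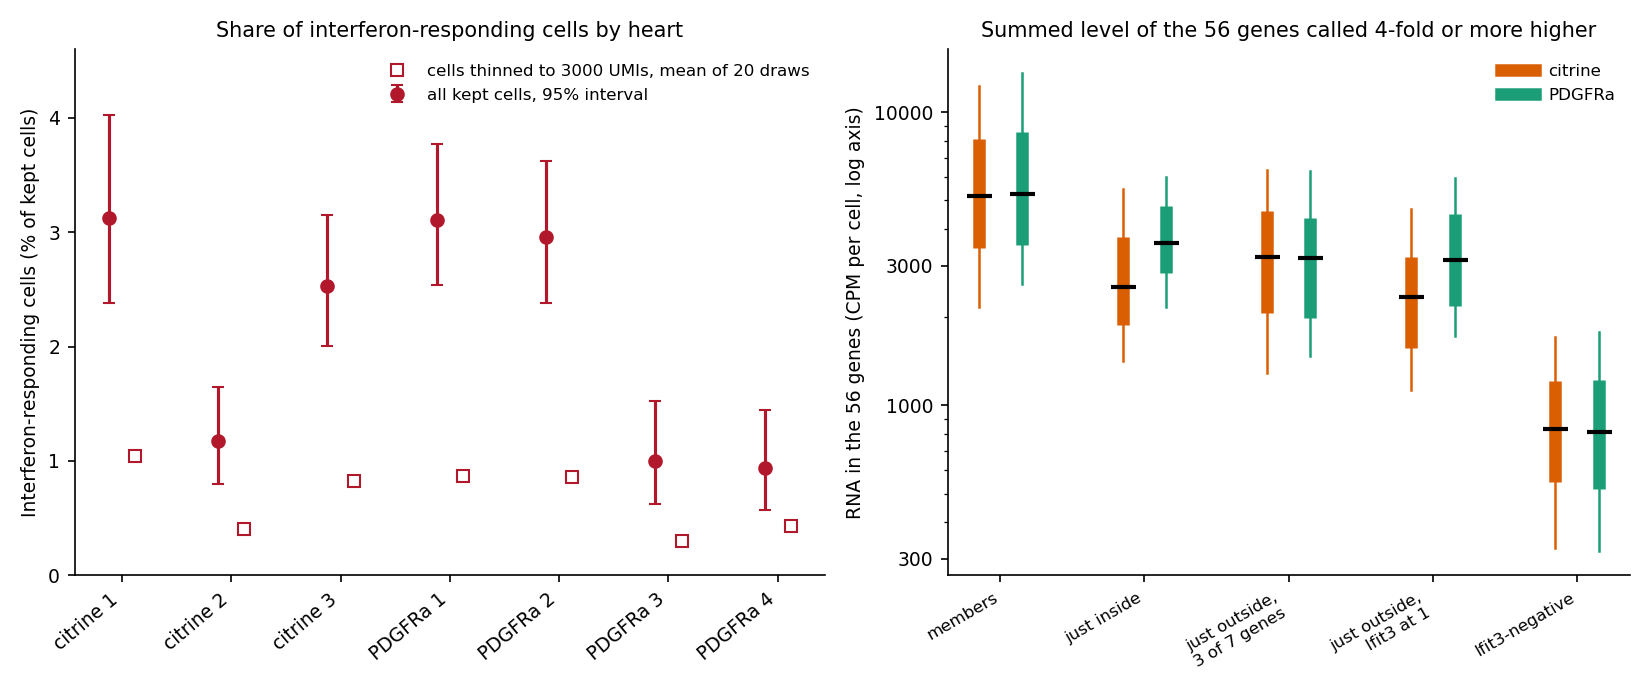
Left, interferon-responding cells as a percentage of kept cells in each of 7 hearts (filled points, with exact 95% intervals) and after every cell was thinned to 3000 UMIs (open squares, mean of 20 draws); citrine 1 and 3 and PDGFRa 1 and 2 lie above the other 3 hearts by both measures. Right, summed CPM per cell of the 56 genes called at least 4-fold higher, on a log axis, for members, for cells just inside and just outside the rule, and for Ifit3-negative cells of each library; lines mark medians, boxes the 25th to 75th and whiskers the 10th to 90th percentile, and members lie at medians of 5158 and 5240 CPM against 833 and 809 CPM.

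The genes that chose the cells are given as a description, with no test. Members had 805 to 1228 CPM of Ifit3, which encodes an antiviral protein of the tetratricopeptide family, in the 7 hearts, and Ifit3-negative cells had 0 by the rule. Isg15, a ubiquitin-like modifier of proteins, had 794 to 1124 CPM in members (median of hearts 1044) and 24.1 to 42.7 CPM in Ifit3-negative cells (median 36.1). Ifit1, a binder of foreign RNA caps, had 401 to 1002 CPM in members and 6.42 to 15.2 CPM in Ifit3-negative cells. Rsad2 (viperin, an enzyme that makes a chain-terminating nucleotide) had 101 to 542 CPM in members and 0.544 to 1.65 CPM in Ifit3-negative cells. Irf7, the amplifier of type I interferon transcription, had 126 to 285 CPM in members and 11.8 to 29.2 CPM in Ifit3-negative cells. Of the 8 interferon genes of the rule, 7 did not overlap between the sets in any pair of hearts. The exception was Ifi44, with 0 to 98.8 CPM in members and 0.161 to 2.77 CPM in Ifit3-negative cells. It had no UMI in the members of PDGFRa heart 3.

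Cells at the edge of the rule were described by the summed CPM of the 56 genes called at least 4-fold higher below, a sum that rests on the same cells and therefore gets no test. Members had a median of 5158 CPM in the citrine and 5240 CPM in the PDGFRa library, against 833 and 809 CPM in Ifit3-negative cells. Cells just inside the rule (Ifit3 at 2 UMIs and 4 of the 7 genes) had medians of 2524 CPM in 25 citrine cells and 3575 CPM in 19 PDGFRa cells. Cells just outside it with 3 of the 7 genes had 3214.5 CPM in 111 citrine cells and 3181 CPM in 77 PDGFRa cells. Those just outside it with 1 UMI of Ifit3 had 2343 CPM in 46 citrine and 3138 CPM in 60 PDGFRa cells. The medians just inside and just outside the rule thus lay in the same range. Members themselves ranged from 1192 to 29046 CPM in the citrine and from 1413 to 48910 CPM in the PDGFRa library, and the Ifit3-negative cells reached 15636 and 16019 CPM. Heart medians of members lay between 4274 and 5431 CPM in 6 hearts and at 7703 CPM in PDGFRa heart 4, where 20 members were found.

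The label of fibroblasts was checked against a list of 15 fibroblast identity genes. Their summed level was 57133 to 66910 CPM in members and 59578 to 69507 CPM in Ifit3-negative cells of the 7 hearts. Dcn, a small proteoglycan, had 8742 to 24181 CPM in members and 12397 to 21980.0 CPM in Ifit3-negative cells, and Pdgfra itself had 50.8 to 401 CPM in members and 97.3 to 387 CPM in Ifit3-negative cells. Markers of other cells were compared in the same way. The 10 macrophage and monocyte markers summed to 0 to 11.7 CPM in members and 4.34 to 22.3 CPM in Ifit3-negative cells, with Adgre1, Fcgr1 and Ptprc at 0 in members. The 8 endothelial markers summed to 16.5 to 52.2 CPM in members and 23.8 to 91.1 CPM in Ifit3-negative cells, with Cdh5, Tie1 and Cldn5 at 0 in members. Pericyte markers, which the rule limited, summed to 21.96 to 71.7 CPM in members and 36.1 to 417 CPM in Ifit3-negative cells. Smooth muscle markers summed to 63.0 to 919 CPM in members and 49.9 to 647 CPM in Ifit3-negative cells. Lymphocyte markers summed to at most 12.2 CPM in the members of any heart, against at most 0.456 CPM in Ifit3-negative cells, with Cd3e, Ms4a1, Nkg7 and Klrb1c at 0 in members. Neutrophil markers reached 0.686 CPM, Schwann markers 6.11 CPM and cardiomyocyte markers 61.4 CPM in members, against 1.02, 2.41 and 32.7 CPM in Ifit3-negative cells, and epicardial and erythroid markers were at 0 in members. A list of 12 cell cycle genes had 3 that were tested, none called by edgeR, none at an unadjusted p under 0.05 and none called by DESeq2.

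The comparison that the rule leaves to be tested is over genes it did not use, between the members and the Ifit3-negative cells of the same heart. The higher fold changes fell mostly on antiviral effectors, interferon-inducible GTPases and RNA sensors, with smaller ones in antigen presentation and fewer genes lower than higher. UMIs were summed per heart and set of cells and tested by edgeR's quasi-likelihood test with the heart as a block and Benjamini-Hochberg adjustment. Of 8031 genes tested, 222 (2.76%) were higher and 44 (0.548%) lower in members at an adjusted p under 0.05. Without PDGFRa hearts 1 and 2 the test called 162 higher and 14 lower, of which 151 and 7 were among those called with all hearts. With the mural limit also put on Ifit3-negative cells, 226 were higher and 46 lower, of which 222 and 40 were among those called without it. The median log2 fold change was 0.94 over the genes called higher and -0.54 over those called lower, against -0.01 over all tested genes. A gene could pass the filter, a mean of 10 CPM over all sums, through its level in members alone: 137 tested genes lay below 10 CPM in Ifit3-negative cells, and 40 of the 222 were among them. Of the other 7894 genes, 182 were higher and 44 lower. A fold of 4 or more was seen for 56 of the 222 genes, and a fold of 2 or more for 106. Of the 44 lower genes, 3 fell by a fold of 2 or more. Members chosen for 8 interferon-induced genes share other genes of that response by construction. These p-values measure only whether a gene's difference within hearts exceeded the spread of that difference over 7 hearts. For 1.17% of tested genes every heart's members lay above every heart's Ifit3-negative cells. This held for 93 of the 222 genes called higher and for 53 of the 56 with a fold of 4 or more. These genes were picked on the same sums, which raises such counts, so the counts are a description only. All hearts' members lay below all hearts' Ifit3-negative cells for 0.0872% of tested genes, and for 1 of the 44 called lower.

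**Figure D2:**
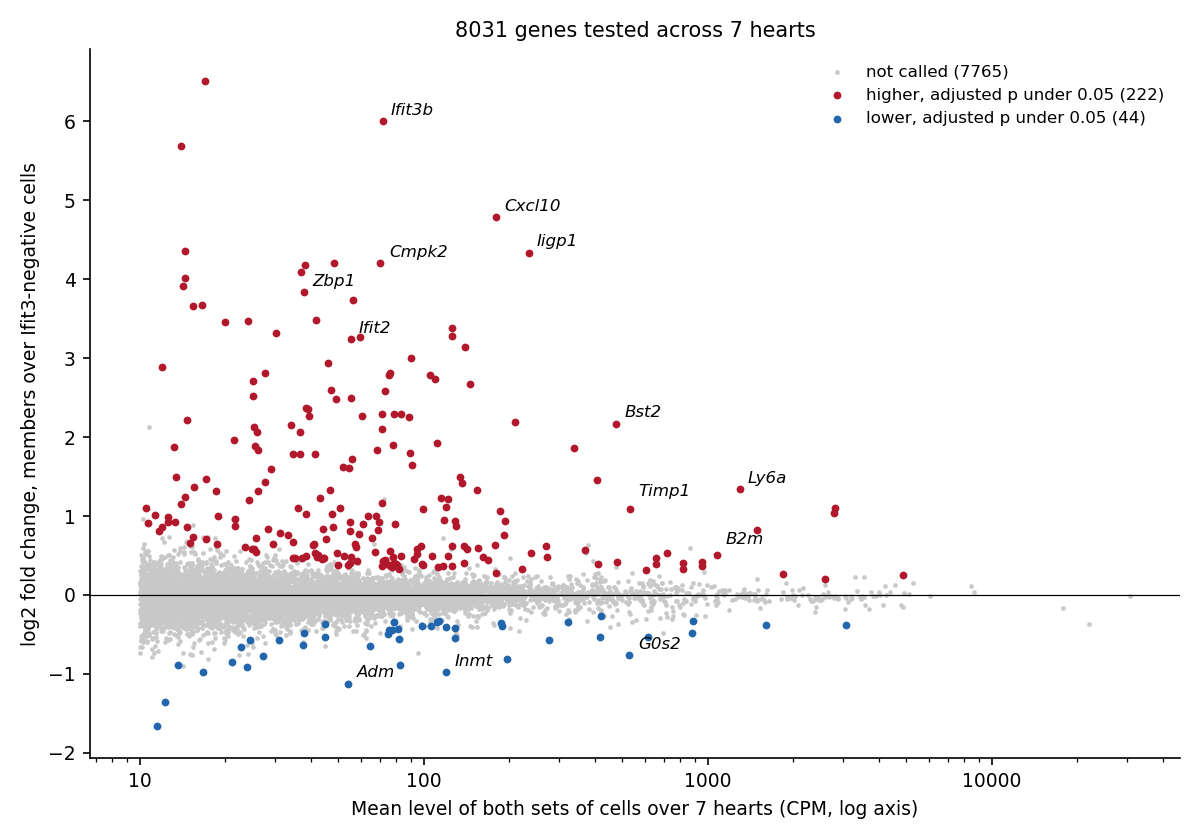
Each of 8031 tested genes by its mean level in both sets of cells (CPM, log axis) and its log2 fold change in interferon-responding over Ifit3-negative cells; red points are the 222 genes called higher and blue points the 44 called lower by edgeR at an adjusted p under 0.05. The highest fold changes lie above 4 on the log2 scale, while the called decreases lie mostly within 1 of 0.

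Interferon ligands were close to absent. Of 21 interferon genes, the citrine library had 18 UMIs of Ifnz, 5 of Ifng and 2 of Ifnab among 96595106 UMIs of kept cells, none of them in members. The PDGFRa library had 15 UMIs of Ifnz and 5 of Ifng among 120683114 UMIs, of which 1 and 2 were in members. No UMI of Ifnb1 or of an Ifna gene was seen in either library. Over the members of the 7 hearts a count of 0 allows up to 0.608 CPM, and over the Ifit3-negative cells up to 0.0218 CPM.

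Of 13 tested genes for receptors, Janus kinases and STAT factors, 3 rose and none fell, against 2.76% higher over all tested genes. The median log2 fold change of the list was -0.00. Stat2 and Irf9, parts of the type I interferon transcription complex, were among the 3. Stat2 had 99.0, 82.0 and 82.7 CPM in members of citrine hearts 1 to 3 and 56.3, 69.4, 158 and 171 CPM in members of PDGFRa hearts 1 to 4, against 19.2, 19.9 and 16.9 CPM and 16.8, 17.5, 18.0 and 23.9 CPM in Ifit3-negative cells of the same hearts. Every heart's members lay above every heart's Ifit3-negative cells, and the log2 fold change was 2.27 ± 0.14 (SE, edgeR adjusted p = 1.96e-11). Irf9 had 74.8 to 159 CPM in members and 23.7 to 31.7 CPM in Ifit3-negative cells, again without overlap, with a log2 fold change of 1.84 ± 0.11 (edgeR adjusted p = 3.74e-11). The receptor chains showed no such difference. Ifnar1 had 23.9 to 40.5 CPM in members and 30.4 to 34.3 CPM in Ifit3-negative cells (log2 fold change -0.07 ± 0.13, edgeR adjusted p = 0.978), and Ifnar2, Ifngr1 and Ifngr2 had log2 fold changes of -0.10, -0.10 and 0.09. Jak1 was at -0.00 and Stat3 at 0.01, neither called.

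Among 8 tested interferon regulatory factors, Irf9 and Irf2 rose, against 2.76% higher over all tested genes. Irf2, a factor that can repress the same elements, had a log2 fold change of 0.40 ± 0.09 (edgeR adjusted p = 0.0168) and was higher in members of 6 of 7 hearts. Without PDGFRa hearts 1 and 2 a single gene of the list was called. Irf1, an early target of interferon gamma, had 24.4 to 228 CPM in members and 44.3 to 164 CPM in Ifit3-negative cells (log2 fold change 0.24, edgeR adjusted p = 0.341). Irf3 and Irf8 were at -0.48 and -0.29 and were not called.

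Upstream windows of the called genes were searched for the sites of these factors. The windows run from 250 bases before to 50 bases after a transcript start (RefSeq, GRCm38.p6). The ISRE core was spelled GAAANNGAAA and the GAS core TTCNNNGAA, on both strands, where N is any base. The ISRE core was present for 24 of the 42 genes with a window among those called 4-fold or more higher (57.1%), for 50 of 168 among all called higher (29.8%), for none of 28 called lower, and for 197 of 6019 tested and not called (3.27%). Over all 32851 windows of the table its share was 3.44%. The GAS core was present for 19.05% of the genes called 4-fold or more higher, 12.5% of all called higher, 10.7% of those called lower and 7.78% of those not called, and in 8.30% of all windows. A match is a description of letters in a window and not a bound site. The stretches below are shown because they hold the ISRE core upstream of genes on which the results turn, 1 of the rule and the others tested. They are written 5′ to 3′ on the gene's strand, with every match in capitals and the distance given for the match nearest the start; overlapping matches run together.
Isg15, chr4:156200835-156200924, minus strand, nearest match beginning 66 bases before the start: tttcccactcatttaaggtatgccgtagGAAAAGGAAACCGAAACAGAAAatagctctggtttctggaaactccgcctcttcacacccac
Ifit3b, chr19:34607763-34607852, plus strand, 154 bases before the start: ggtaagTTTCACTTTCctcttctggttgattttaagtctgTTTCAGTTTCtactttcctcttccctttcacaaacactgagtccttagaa
Cxcl10, chr5:92349053-92349139, minus strand, 213 bases before the start: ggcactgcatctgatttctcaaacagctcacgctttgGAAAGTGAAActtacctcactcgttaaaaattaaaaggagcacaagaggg
Igtp, chr11:58199482-58199555, plus strand, 34 bases before the start: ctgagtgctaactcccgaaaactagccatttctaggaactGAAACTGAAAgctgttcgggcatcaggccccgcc
Gbp3, chr3:142559965-142560043, plus strand, 39 bases before the start: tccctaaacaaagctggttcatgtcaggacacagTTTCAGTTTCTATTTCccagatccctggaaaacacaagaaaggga
Stat2, chr10:128270248-128270325, plus strand, 222 bases before the start: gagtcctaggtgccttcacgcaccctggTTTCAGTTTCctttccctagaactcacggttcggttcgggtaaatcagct
B2m, chr2:122147508-122147597, plus strand, 139 bases before the start: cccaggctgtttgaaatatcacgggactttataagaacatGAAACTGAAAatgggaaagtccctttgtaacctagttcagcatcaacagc
The Isg15 stretch holds 3 matches and the Ifit3b and Gbp3 stretches 2 each. In Ifit3b, Gbp3 and Stat2 the matches lie on the opposite strand and read as the reverse complement. The Ifit3b stretch is the same run of letters as the one found before Ifit3 (chr19:34583367-34583456), so these neighbouring genes are near-identical copies upstream, and reads of their transcripts may be split uncertainly between them.

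Of 16 tested nucleic acid sensors and adaptors, 10 rose in members and none fell, against 2.76% higher over all tested genes, with a median log2 fold change of 1.41. Of the 16, 3 lay below 10 CPM in Ifit3-negative cells, and among the other 13 there were 8 higher, with a median of 1.22. With no filter on low values 10 of 23 were higher, 1 was lower and the median was 0.40. Ifih1 (MDA5, a sensor of long double-stranded RNA) had 101, 93.2 and 115 CPM in members of the citrine hearts and 138, 123, 145 and 153 CPM in those of the PDGFRa hearts, against 22.99, 20.9 and 24.7 CPM and 17.4, 18.2, 25.7 and 22.99 CPM in Ifit3-negative cells. Members of all 7 hearts lay apart from all Ifit3-negative cells, at a log2 fold change of 2.58 ± 0.12 (edgeR adjusted p = 1.63e-13). Ddx58 (RIG-I) and Dhx58 (LGP2), of the same family, rose by 2.29 ± 0.09 and 3.46 ± 0.21. Zbp1, which binds Z-form nucleic acid and can start necroptosis, had 25.2 to 119 CPM in members (median 70.7) and 3.26 to 6.69 CPM in Ifit3-negative cells (median 5.18). Its log2 fold change was 3.84 ± 0.15 (edgeR adjusted p = 1.18e-14), with the members of PDGFRa heart 3 lowest. Zbp1 passed the filter on low values through the members alone. Tlr3, an endosomal sensor of double-stranded RNA, rose by 1.89 ± 0.17, and the Ifi200-family genes Mndal and Ifi204 by 2.20 and 1.22. The adaptors behind these sensors were not called: Mavs was at 0.16 (edgeR adjusted p = 0.906), Myd88 at 0.13, Tbk1 at -0.16 and the bacterial sensor Tlr4 at -0.06.

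Antiviral effectors made up the largest list, with a median log2 fold change of 2.10. Of 45 tested genes 40 were higher and none lower, against 2.76% higher over all tested genes. Without PDGFRa hearts 1 and 2 the count was again 40 of 45. Of the 45, 13 lay below 10 CPM in Ifit3-negative cells, and among the other 32 there were 28 higher. Ifit3b, a near-copy of Ifit3, had 70.8 to 226 CPM in members (median 147) and 1.47 to 3.58 CPM in Ifit3-negative cells (median 1.94). Since its UMIs may be shared with Ifit3, which chose the cells, its values are given as a description without its p-value. It was not taken out of the test. It is thus counted among the 40 effectors, the 222 genes called higher and the 56 genes with a fold of 4 or more. Mx1, a GTPase that blocks influenza and other viruses, had 29.0, 7.46 and 24.8 CPM in members of citrine hearts and 50.1, 68.7, 12.6 and 42.8 CPM in members of PDGFRa hearts, against 0.227 to 0.520 CPM in Ifit3-negative cells of all hearts. Its log2 fold change of 6.51 ± 0.28 (edgeR adjusted p = 5.79e-14) rested on 222 UMIs in members and 56 in Ifit3-negative cells, and Mx1 passed the filter on low values through the members alone. Many inbred strains, C57BL/6 among them, are known to carry a defective Mx1 gene, and the UMIs say nothing about its protein.

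Further effectors covered several ways of blocking a virus. Cmpk2, a mitochondrial nucleotide kinase next to Rsad2 in the genome, had 70.0 to 208 CPM in members and 2.64 to 11.3 CPM in Ifit3-negative cells (log2 fold change 4.20 ± 0.16). Eif2ak2 (PKR, which halts translation on double-stranded RNA) had 67.1 to 176 CPM in members and 15.9 to 23.5 CPM in Ifit3-negative cells, and rose by 2.78 ± 0.12. Bst2 (tetherin, which holds budding virus at the membrane) had 447 to 953 CPM in members and 134 to 213 CPM in Ifit3-negative cells, and rose by 2.17 ± 0.09. In none of these did hearts overlap between the sets. Rtp4, Trim30a and Slfn8 rose by 3.29, 3.38 and 3.48, as did Trim30d, which is outside the list, by 3.32. Trim30, Slfn and Phf11 genes lie in clusters of near copies, so the split of UMIs within each family is uncertain. Smaller increases were found for genes already abundant in Ifit3-negative cells: Ifitm3, an endosomal restriction factor, had 2489 to 4962 CPM in members and 1361 to 2417 CPM in Ifit3-negative cells (log2 fold change 1.03 ± 0.07). Lgals3bp, a secreted glycoprotein, rose by 1.33.

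Guanylate-binding proteins and immunity-related GTPases coat and break pathogen-containing vacuoles. The 12 genes tested of 20 listed had a median log2 fold change of 3.46. Each of the 12 was higher, against 2.76% of all tested genes. Since 7 of the 12 lay below 10 CPM in Ifit3-negative cells and passed the filter through the members, this count had to be high. With no filter 16 of 19 were higher, with a median of 3.09. Iigp1 (Irga6) had 449, 172 and 291 CPM in members of the citrine hearts and 604, 589, 473 and 544 CPM in members of the PDGFRa hearts, against 14.6, 16.97 and 16.5 CPM and 34.7, 32.7, 19.9 and 18.6 CPM in Ifit3-negative cells. Even the lowest heart of members, citrine heart 2, lay above the highest Ifit3-negative value, at a log2 fold change of 4.34 ± 0.12 (edgeR adjusted p = 2.18e-16). Igtp (Irgm3), a regulatory member of the family, had 82.0 to 141 CPM in members and 5.46 to 10.9 CPM in Ifit3-negative cells, and rose by 3.74 ± 0.14. Ifi47 (Irgd) and F830016B08Rik rose by 4.09 ± 0.18 and 4.19 ± 0.18, and Gm4951, counted among the effectors, by 4.21 ± 0.14. Gbp3 had 75.6 to 171 CPM in members and 8.03 to 16.01 CPM in Ifit3-negative cells, and rose by 3.27 ± 0.14, whereas Gbp2, with the smallest fold of the 12, rose by 2.26 ± 0.13. Gbp genes are close copies of each other, and the symbol Gbp6 stands for 2 features.

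In single cells these genes were not detected in every member. With every cell thinned to 3000 UMIs, Iigp1 was detected in 60.0% of PDGFRa members against 5.50% of PDGFRa Ifit3-negative cells, and in 44.7% of citrine members against 4.06% of citrine Ifit3-negative cells. Unthinned, the shares were 86.0% against 11.5% and 71.1% against 9.46%. Cxcl10, which encodes a chemokine for T cells bearing Cxcr3, was detected after thinning in 17.7% of PDGFRa members against 2.23% of PDGFRa Ifit3-negative cells, and in 6.23% of citrine members against 0.660% of citrine Ifit3-negative cells. The unthinned shares were 26.5% against 4.06% and 8.79% against 1.24%. Mx1 was found after thinning in 10.1% of PDGFRa and 7.24% of citrine members, against 0.139% and 0.0910% of Ifit3-negative cells.

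**Figure D3:**
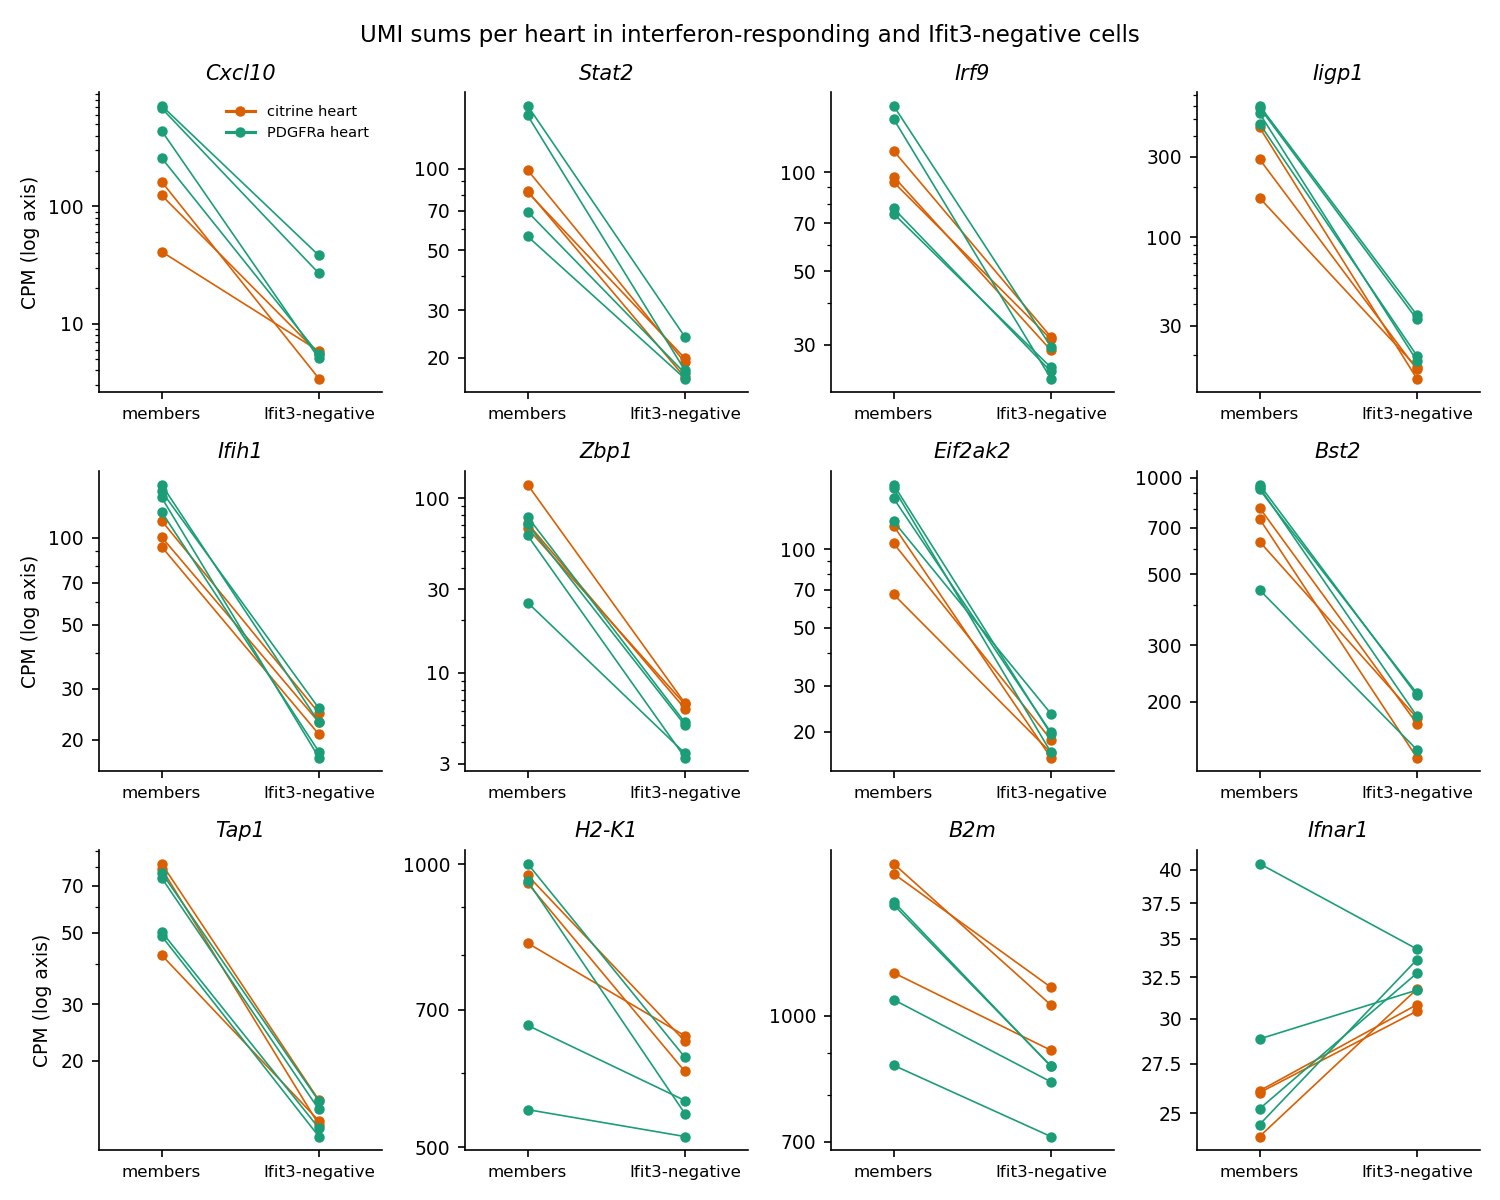
Level of 12 genes (CPM, log axes that differ between panels) in the members and the Ifit3-negative cells of each heart, joined by a line for the same heart; orange marks citrine and green PDGFRa hearts. Lines slope down from members to Ifit3-negative cells in every heart for all genes shown but Ifnar1, whose log2 fold change of -0.07 was not called; H2-K1 and B2m differ by less than 2-fold and their hearts overlap.

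Of 18 tested chemokines and cytokines, 4 rose and none fell, against 2.76% higher over all tested genes. The median log2 fold change of the list was 0.32. Cxcl10 had 162, 41.0 and 124 CPM in members of citrine hearts 1 to 3 and 685, 719, 258 and 440.0 CPM in members of PDGFRa hearts 1 to 4, against 3.41, 5.85 and 5.52 CPM and 26.8, 38.1, 5.46 and 5.05 CPM in Ifit3-negative cells. It was highest in PDGFRa hearts 1 and 2 in both sets of cells. The sets did not overlap, at a log2 fold change of 4.79 ± 0.21 (edgeR adjusted p = 5.08e-14). The related Cxcl9, a target of interferon gamma, was too low to be tested: in members it had 38.4 and 28.2 CPM in PDGFRa hearts 1 and 2 and 0 in the other 5 hearts, against 25.7 and 8.41 CPM and at most 0.0935 CPM in Ifit3-negative cells. Il15, a cytokine that sustains natural killer and memory T cells, rose by 0.84 ± 0.14 in all 7 hearts (edgeR adjusted p = 0.000491). The neutrophil chemokine Cxcl5 rose by 1.01 ± 0.17 and the monocyte chemokine Ccl2 by 0.58 ± 0.15, each in 6 of 7 hearts. DESeq2 called 2 genes of the list in place of 4, and edgeR called 8 of 18 without PDGFRa heart 2 and 5 of 15 without PDGFRa hearts 1 and 2. Cxcl1, Ccl7 and Il6 were not called, at -0.07, 0.64 and 0.38.

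Genes of MHC class I and antigen processing rose with smaller folds, at a median log2 fold change of 0.56. Of 20 tested, 13 were higher and none lower, against 2.76% higher over all tested genes. The peptide pump Tap1 had 42.7 to 82.0 CPM in members and 11.6 to 15.1 CPM in Ifit3-negative cells, without overlap, and rose by 2.36 ± 0.12 (edgeR adjusted p = 1.68e-12). The immunoproteasome subunits Psmb9, Psmb8 and Psmb10 rose by 1.62, 1.42 and 1.09. H2-K1, a classical class I heavy chain, had 824, 954 and 973 CPM in members of the citrine hearts and 1001, 674, 548 and 959.5 CPM in members of the PDGFRa hearts, against 657, 602 and 648 CPM and 623, 560.5, 513 and 543 CPM in Ifit3-negative cells. Members were higher in each of the 7 hearts but the ranges overlapped, and the log2 fold change was 0.53 ± 0.08 (edgeR adjusted p = 6.28e-05). The light chain B2m had 869 to 1538 CPM in members and 711 to 1084 CPM in Ifit3-negative cells, and rose by 0.51 ± 0.06 (edgeR adjusted p = 7.32e-06). The non-classical H2-T22 and H2-T23 rose by 1.22 and 0.88. Chaperones shared with other glycoproteins, Calr, Canx and Pdia3, were at 0.13, 0.02 and 0.13 and were not called. The class I transactivator Nlrc5 had 18 UMIs in members and 42 in Ifit3-negative cells, too few to be tested. Of 8 MHC class II genes none could be tested, and the class II transactivator Ciita had 0 UMIs in members and 3 in Ifit3-negative cells.

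Of 13 tested negative regulators, the brakes on interferon signalling, Socs1 and Usp25 rose and none fell. The share higher over all tested genes was 2.76%, and the list median was 0.04. Socs1, which binds and blocks Janus kinases, had 52.0 to 85.1 CPM in members and 29.0 to 58.2 CPM in Ifit3-negative cells, a log2 fold change of 0.65 ± 0.12 (edgeR adjusted p = 0.00202). Usp25, a deubiquitinase, rose by 0.82 ± 0.09 in all 7 hearts. Without PDGFRa hearts 1 and 2, 1 gene of this list was called. Socs3 was at -0.34 and was not called (edgeR adjusted p = 0.0756). Usp18, the strongest known brake on the type I receptor, belonged to the rule.

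Counts in neighbouring inflammatory programmes stand against 2.76% higher and 0.548% lower over all tested genes. Of 16 tested NF-kB targets 1, the adhesion molecule Vcam1, rose (log2 fold change 0.48 ± 0.11), DESeq2 called none, nor did edgeR without PDGFRa hearts 1 and 2, each with 2 genes higher at an unadjusted p under 0.05, and the list median was 0.09. None of 8 tested complement genes was called by edgeR or DESeq2; 3 were lower at an unadjusted edgeR p under 0.05, and the median was -0.24. Without citrine heart 2, 1 was lower, and under the stricter selection 3. C3, the central component of the cascade, was at -0.29 ± 0.08 (edgeR adjusted p = 0.0607). Of 12 tested cell death genes, Mlkl, the executor of necroptosis, rose by 1.16 ± 0.19 and Daxx, a regulator of death signalling, by 1.43 ± 0.14. Of the 12, 2 lay below 10 CPM in Ifit3-negative cells and passed the filter through the members. One of these 2 was called, and so was 1 of the other 10. Without PDGFRa hearts 1 and 2, 1 gene of this list was called. Of 19 immediate early genes, which tissue digestion induces, none was called by edgeR or DESeq2, with 2 higher and 7 lower at an unadjusted edgeR p under 0.05 and a median of -0.12. Other settings of the edgeR test did call genes of this list: 7 lower under a stricter selection of members and 7 lower with no filter on low values, 3 lower in citrine hearts only and 2 higher in PDGFRa hearts only. Fos was at -0.12 (edgeR adjusted p = 0.491).

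**Figure D4:**
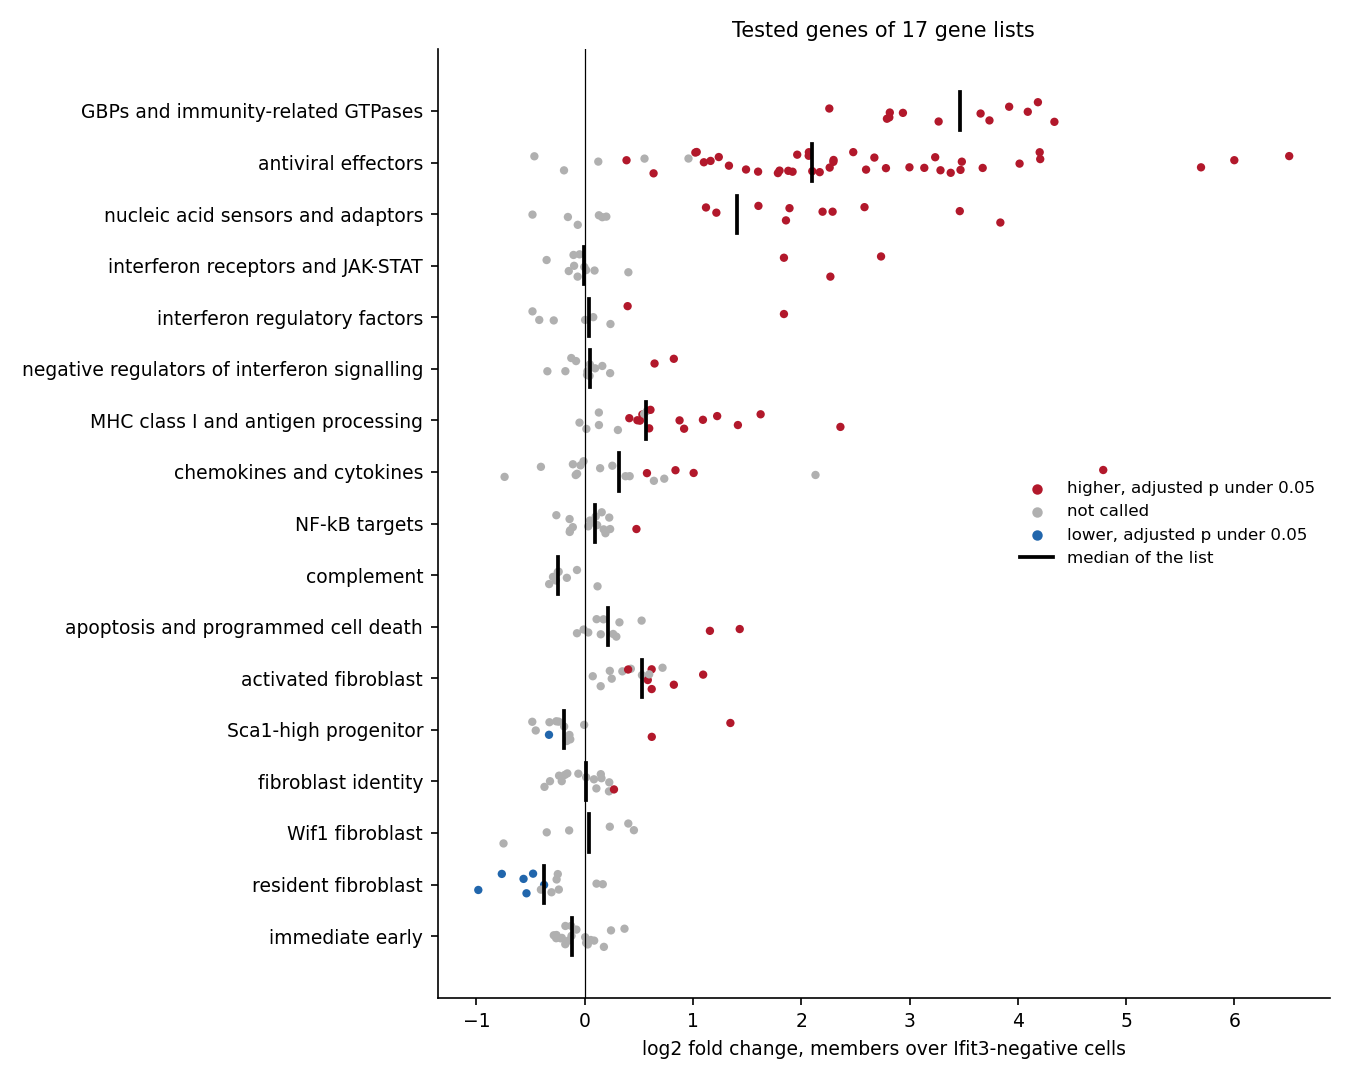
Log2 fold change in interferon-responding over Ifit3-negative cells for each tested gene of the gene lists, with red points called higher and blue points called lower by edgeR at an adjusted p under 0.05, grey points not called and a bar at each list's median. The GTPases, antiviral effectors and sensors lie at medians of 3.46, 2.10 and 1.41, while receptors and JAK-STAT, interferon regulatory factors and negative regulators lie near 0.

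Fibroblast state genes differed between the sets, but most of these differences did not last when Ifit3-negative cells were matched to members on UMIs (5 per member within a heart). Over all tested genes 2.76% rose. Of 15 tested genes of activated fibroblasts, 6 rose (Postn, Cilp, Ltbp2, Ddah1, Runx1 and Timp1) with a median log2 fold change of 0.53. DESeq2 called 1 of them. Against matched cells edgeR called none, with 4 higher and 2 lower at an unadjusted p under 0.05, and the median was 0.15. Postn, a matrix protein of activated fibroblasts, had 409.5, 52.2 and 435 CPM in members of the citrine hearts and 4257, 6214, 586 and 678 CPM in members of the PDGFRa hearts, against 174, 177 and 235 CPM and 3327, 3829, 189 and 253 CPM in Ifit3-negative cells. It was lower in members of citrine heart 2 and higher in the other 6, at 0.82 ± 0.17 (edgeR adjusted p = 0.00471), and at 0.34 against matched cells (edgeR adjusted p = 0.513). Timp1, an inhibitor of matrix metalloproteinases, was higher in members of all 7 hearts, with 119.7 to 1644 CPM in members and 88.2 to 1309 CPM in Ifit3-negative cells, and rose by 1.09 ± 0.19 (edgeR adjusted p = 0.000557). Against matched cells its log2 fold change was 0.84 (edgeR adjusted p = 0.149).

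Over all tested genes 0.548% fell. Of 13 tested resident fibroblast genes, 6 fell (Inmt, Hsd11b1, Apoe, Dpep1, G0s2 and Adamts5), with a list median of -0.38. Against UMI-matched cells a single one of them, Adamts5, fell, and the median was -0.08; without PDGFRa hearts 1 and 2, 2 fell, and 3 fell without PDGFRa heart 1 or heart 4 alone. Inmt, a methyltransferase, had 11.7 to 214 CPM in members and 73.6 to 224 CPM in Ifit3-negative cells, at -0.98 ± 0.19 (edgeR adjusted p = 0.00202), and -0.29 against matched cells (edgeR adjusted p = 0.683). The Sca1-high progenitor list held 13 tested genes, of which Ly6a and Ly6c1 rose and Clec3b fell, with a median of -0.19. Over all tested genes 2.76% rose. Against matched cells Ly6c1 was at 0.73 (edgeR adjusted p = 6.55e-05). Clec3b was at -0.06 there and not called (edgeR adjusted p = 0.901), nor did DESeq2 call it. Ly6a, which encodes Sca1 and is itself known to be interferon-inducible, had 2531, 2837 and 3512 CPM in members of the citrine hearts and 695, 574, 1248 and 1791 CPM in members of the PDGFRa hearts, against 1105, 876 and 1140.4 CPM and 319, 314, 584 and 598 CPM in Ifit3-negative cells. Each heart's members lay above its own Ifit3-negative cells, with a log2 fold change of 1.35 ± 0.08 (edgeR adjusted p = 4.33e-11) and of 1.46 against matched cells. Of the 15 fibroblast identity genes 1 was called, Mfap5 at 0.27, and the median was 0.01. Against matched cells Mfap5 was at 0.14 and not called (edgeR adjusted p = 0.319). None of 6 tested genes of the Wif1 fibroblast list was called by edgeR or DESeq2, with 1 higher and 1 lower at an unadjusted edgeR p under 0.05.

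The named genes lower in members changed by small factors, and each overlapped between the sets. These 10 were Adm, Abca6, G0s2, 6030408B16Rik, Adamts5, Pcsk6, Cdkn1c, Pde4b, Ablim1 and Mt1, at log2 fold changes of -1.12 to -0.38. Adm (adrenomedullin, a vasodilator peptide) had 32.4, 41.0 and 57.9 CPM in members of the citrine hearts and 10.98, 18.5, 75.6 and 18.3 CPM in members of the PDGFRa hearts, against 71.9, 59.8 and 74.2 CPM and 52.5, 56.3, 106 and 82.9 CPM in Ifit3-negative cells. The members were lower in each heart, at -1.12 ± 0.18 (edgeR adjusted p = 0.000152) and -0.61 against matched cells (edgeR adjusted p = 0.0148). G0s2, an inhibitor of triglyceride breakdown, had 59.8 to 623 CPM in members and 289 to 947 CPM in Ifit3-negative cells, at -0.77 ± 0.15 (edgeR adjusted p = 0.00293). It was no longer called against matched cells, nor were Cdkn1c, Pde4b, Ablim1 and Mt1.

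The libraries were compared by the interaction of set of cells and library, which was called for 15 genes (0.187% of those tested), 8 with a higher (0.0996%) and 7 with a lower fold change (0.0872%) in the PDGFRa hearts. Among them was Ifit2, with a fold change 1.38 higher on the log2 scale in the PDGFRa hearts (edgeR adjusted p = 0.0158). Ifit3b is also among the 15, but shares sequence with the gene that chose the cells. Ifit2 had 77.5, 101, 227 and 91.7 CPM in members of the PDGFRa hearts against 6.03, 6.59, 13.9 and 11.3 CPM in their Ifit3-negative cells, and 75.1, 33.6 and 87.5 CPM in members of the citrine hearts against 13.8, 15.04 and 12.5 CPM in their Ifit3-negative cells. Its Ifit3-negative levels were lowest in PDGFRa hearts 1 and 2, and its level in members was highest in PDGFRa heart 3. Iigp1 and Cxcl10 had interaction estimates of 0.11 and 0.27, none called. Reporter, injury and library differ together between these groups and cannot be told apart. Without PDGFRa hearts 1 and 2 the interaction was called for 7 genes.

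The hashtag antibody gave a readout of MHC class I protein at the cell surface, which the rule did not use, although the same tags assigned cells to hearts. Members had more UMIs of their heart's own hashtag by the median per cell, with 19, 46 and 26 in members of citrine hearts 1 to 3 against 17, 39 and 17 in their Ifit3-negative cells. In PDGFRa hearts 1 to 4 the medians were 134, 319.5, 34 and 60 in members against 68, 196, 29 and 54 in Ifit3-negative cells. By the mean per cell, the measure chosen for the test, the log2 ratio of members over Ifit3-negative cells was 0.29 ± 0.51 (SD, n = 7 hearts) and positive in 5 hearts, with p = 0.172 by an exact two-sided sign-flip permutation test. By the median the ratio was 0.44 ± 0.33 and positive in 7 of 7 hearts, with an exact permutation p = 0.0156, the smallest that 7 hearts allow. Against UMI-matched Ifit3-negative cells the ratios were 0.12 by the mean (exact permutation p = 0.469) and 0.21 by the median (6 of 7 hearts, exact permutation p = 0.0781). Per 1000 RNA UMIs the ratio was -0.04, positive in 3 of 7 hearts (exact permutation p = 0.922). Members held more RNA UMIs than Ifit3-negative cells in all hearts, and the part of cell size or capture in the hashtag ratio was not tested apart from these values.

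**Figure D5:**
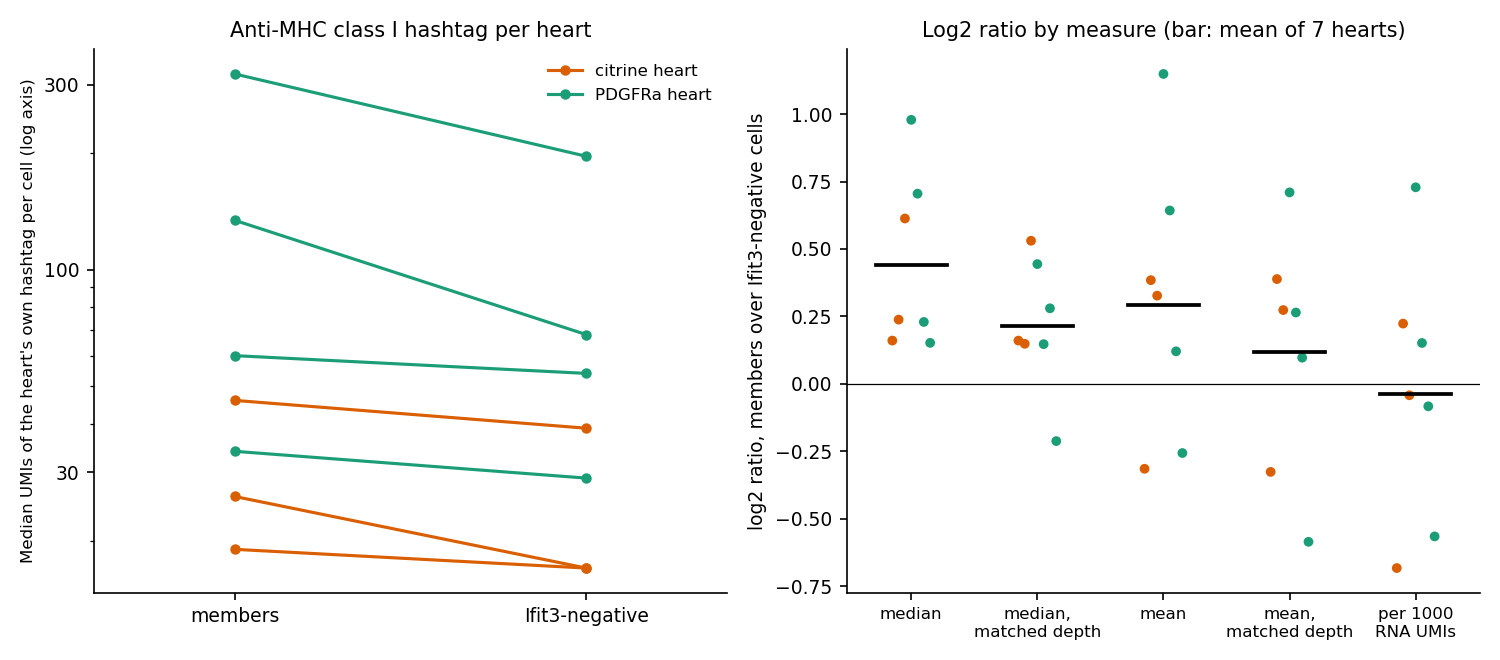
Left, median UMIs of a heart's own anti-MHC class I hashtag per cell (log axis) in members and Ifit3-negative cells, joined by heart; all 7 lines slope down toward the Ifit3-negative cells. Right, log2 ratio of members over Ifit3-negative cells in each heart by 5 measures, with a bar at the mean of 7 hearts, which is 0.44 by the median and -0.04 per 1000 RNA UMIs; orange marks citrine and green PDGFRa hearts.

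The same rule applied to the tdTomato libraries, which it had not been set for, found 40 members of 4263 kept cells in the ligated library (0.938%, 95% interval 0.671 to 1.28%) and 32 of 2786 in the undamaged library (1.15%, 0.787 to 1.62%). Thinned to 3000 UMIs the shares were 0.629% and 0.957%. Each library was 1 pool of hearts, so there is no test between them. The limit on mural cell genes alone left out 11 cells of the ligated library and 0 of the undamaged one. Without this limit the order of the unthinned shares would reverse. Ifit3-negative cells had no such limit. Their Rgs5 level was 2655 CPM in the ligated and 1152 CPM in the undamaged library, against 35.97 and 7.48 CPM in members. The part of mural cells in the gene comparisons that follow was not tested. Of the 222 genes called higher above, 220 had at least 20 UMIs in the ligated library, and 194 of those were higher in members. In the undamaged library this held for 182 of 216, against 43.3% and 41.3% of all tested genes. Of the 44 called lower, 38 and 36 were lower in members. Over all tested genes with at least 20 UMIs, 4546 of 8015 and 4688 of 7987 were lower. Cxcl10 had 871 CPM in members and 33.5 CPM in Ifit3-negative cells of the ligated library (exact Poisson 95% interval of the members' value 764 to 987 CPM), and 292 CPM in members and 23.4 CPM in Ifit3-negative cells of the undamaged library (207 to 399 CPM). Adm had 441 CPM in members of the undamaged library (exact Poisson 95% interval 336 to 569 CPM) and 196 CPM in its Ifit3-negative cells. In the ligated library members had 35.97 CPM of Adm from 10 UMIs (17.3 to 66.2 CPM). That interval holds the 59.5 CPM of the ligated Ifit3-negative cells, so no direction is shown there.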

How the data were processed

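RNA was counted as UMIs per gene and cell by the authors with Cell Ranger 3.0.2, per the file headers of the citrine and PDGFRa matrices, and deposited as raw counts of 28001 genes with 4 hashtag features. The submitters' processing notes name mm10 and Seurat 2.1. No normalization had been applied. Droplet libraries of 3′ ends give no gene length, so levels are not compared between genes.

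Hearts were assigned by thresholds on the log10 of hashtag UMIs, and cells with more than 1 hashtag were left out of comparisons between hearts; no doublet caller was run. UMIs were summed per heart and set of cells (14 sums of 7 hearts) and fitted with edgeR 4.0.16 (R 4.3.3) with TMM scaling, the quasi-likelihood test and the heart as a block, since both sets of cells come from the same animal. Genes with a mean of at least 10 CPM were tested, and the 12 genes of the rule were not. DESeq2 1.42.0, other filters, scaling, selections, UMI-matched cells and each heart left out were alternatives. Members and 32 gene lists were chosen with earlier results of these data known. Named genes were the genes of the rule, then among genes with an adjusted p under 0.05, at least 50 CPM in either set and the same direction in every heart the 15 highest and 10 lowest fold changes, and then examples of lists. Other genes named were chosen after their values were seen. On simulated counts of the 8031 genes, 100% of 50 genes raised by 1 on the log2 scale, 94% of 50 lowered by 1 and 0.0766% of unchanged genes were called. Exact tests, intervals, thinning and motif searches used Python 3.11.15 with numpy 2.4.6, pandas 2.3.3 and scipy 1.17.1, and figures matplotlib 3.10.9.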

Additional observations from a re-analysis of the deposited data

Results flagged for a closer look

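Single hearts stood apart in the log2 ratio of members over Ifit3-negative cells for 2 of 26 measures examined by Dixon's test over 7 hearts, where chance alone gives about 1 in 20. Citrine heart 2, with 32 members, was lowest for F830016B08Rik at 2.19 and for Trim30d at 1.25.

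The difference in fold change between the libraries (PDGFRa minus citrine, log2 scale) was called by edgeR for 15 genes. Ifit2 differed by 1.38 (edgeR adjusted p = 0.0158). Ifit3b, at 1.64, is a near-copy of Ifit3, which chose the cells, and its value is given as a description. Genes with the larger fold change in PDGFRa hearts were further Cytl1 at 5.72, 1500015O10Rik at 2.40, Myl9 at 1.92, Ptn at 1.90 and Mdk at 1.30. Genes with the smaller one were Crispld2 at -0.84, Scara5 at -1.01, Mme at -1.27, Tmem204 at -1.40, Timp1 at -1.49 and Gm26771 at -1.68. Saa3, an acute phase protein, was at -13.14, a fitted value and no bound, and all 149 of its UMIs in members lay in citrine heart 1. Cthrc1, a secreted protein of activated fibroblasts, was at 9.35, which is likewise a fitted value and no bound, because the members of the citrine hearts had no UMI. Those of PDGFRa hearts 1 to 4 had 1132, 2015, 31.5 and 24.4 CPM against 814, 1114, 25.8 and 29.975 CPM in Ifit3-negative cells. For Cytl1, a secreted protein of cartilage, members of PDGFRa heart 3 had 706 CPM against 40.5 CPM in its Ifit3-negative cells, and members of citrine heart 2 and PDGFRa heart 2 had none.

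Cells passing the same rule also appeared in the libraries for which it was not written, at 0.938% of kept cells in the ligated and 1.15% in the undamaged tdTomato library.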

How the results depend on the processing

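The 15 named higher genes stayed called under all 22 alternatives, but they include Ifit3b, which shares sequence with a gene of the rule. Of the 220 values of the 10 named lower genes 167 stayed called, 53 did not and none changed sign. The count of higher genes (222 with the heart as a block) was 116 without the block, so without the pairing of sets by heart, of which 115 were among the 222, and 144 in citrine hearts only; leaving out 1 heart in turn gave 171 to 231. Without the block, MHC class I genes called higher numbered 6 of 20, and none of the activated or resident fibroblast genes was called by edgeR, with 0 at an unadjusted p under 0.05 (DESeq2, with the block, called 1 of each list). The count of lower genes (44) was 2 without the block, 174 with no filter on low values, 18 by DESeq2, 21 against UMI-matched cells, 83 under a stricter and 23 under a looser selection, 12 in citrine hearts only, 108 in PDGFRa hearts only and 14 without PDGFRa hearts 1 and 2. Leaving out 1 heart gave 18 to 69, with 19 without PDGFRa heart 1, 18 without PDGFRa heart 2 and 69 without citrine heart 1. The count of interactions (15) was 0 by edgeR without the block (365 at an unadjusted p under 0.05; DESeq2, with the block, called 4), 62 with no filter, 9 against matched cells, 61 under the stricter selection and 7 without PDGFRa hearts 1 and 2. Leaving out 1 heart gave 2 to 31, with 3, 2 and 9 without citrine hearts 1, 2 and 3 and 5, 31 and 24 without PDGFRa hearts 2, 3 and 4. The hashtag ratio (0.29) was 0.44 by the median and -0.0385 per 1000 RNA UMIs, and 0.15 to 0.39 with 1 heart left out. The share of members was 0.572% of citrine and 0.804% of PDGFRa cells under the stricter selection, 4.62% and 4.03% under the looser one and 0.681% and 0.634% with cells thinned. The causes were not tested. With 20 and 21 members in PDGFRa hearts 4 and 3, genes at a few CPM rest on single UMIs there.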
